A study of Rattus norvegicus with 4 samples.

Results

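The genes described here are those whose kidney signal differed in the same direction between nicotine and saline in both of the rat strains studied, whatever the size of the difference. By the deposited signals, 5086 of 10411 genes met that rule, 2499 higher and 2587 lower under nicotine in both strains, and 5324 had opposite signs. Of the 5086 genes, 2504 were measured in both strains and 2582 were not, where measured means that the brighter of the nicotine and saline signals reached 89.0 in each strain. The members were chosen by the same ratios that are described below, so their shared sign is a description and not a result.

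Kidney RNA of male rats aged 9 weeks was compared in 4 groups, made of the spontaneously hypertensive strain (SHR, which inherits high blood pressure) and the Brown Norway strain (BN, an inbred strain with normal pressure), each given nicotine or saline before birth. The labels name no other agent, allele or diet, and all animals were prenatally treated with either nicotine or saline. RNA of 13 animals for SHR nicotine and of 12 for each other group was pooled, and each pool was read on 1 Affymetrix RAE-230A array, so each strain gives a single nicotine ratio with no repeat, and precision is limited by there being only 4 arrays. The 2 ratios of a gene come from different arrays, and a shared direction is the only repeat of the nicotine comparison that the design holds.

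Nicotine crosses the placenta and acts on nicotinic acetylcholine receptors, ligand-gated cation channels of nerve, endothelial and other cells. Prenatal exposure is studied in the kidney because nephrons form before and shortly after birth, and their number is then fixed for life. The adult kidney is mostly proximal tubule, which takes back filtered sodium, sugar, phosphate and amino acids, followed by the loop of Henle, the distal tubule and the collecting duct.

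The labelled tissue was borne out by its markers: all 17 proximal tubule markers on the array reached 89.0 in at least 1 pool, among them Lrp2, the endocytic receptor megalin. None of the 8 adrenal, 7 skeletal muscle or 8 lymphocyte markers on the array did. Of 23 genes for nicotinic and muscarinic receptors and acetylcholine turnover on the array, 0 were measured in both strains, so a shared difference in them was not detectable. The 2% trimmed mean was 150 on every array, and the floor of 44.5, set for signals near background, was reached by 58.9% to 60.7% of probe sets. The ratio of the 3' to the 5' beta-actin signal, a sign of RNA integrity, was 1.34 under nicotine and 1.39 under saline in SHR; the BN values were 1.49 and 1.54. For Gapdh it was 1.11 and 1.0 in SHR; the BN values were 1.09 and 1.07. The beta-actin ratio was thus slightly lower and the Gapdh ratio slightly higher under nicotine in each strain. The part of RNA integrity in the gene differences was not tested.

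A shared direction was no more frequent than an opposite one. Of 5138 measured genes with a ratio other than 0 in both strains, 2504 (48.7%) had the same sign. Of all 5139 measured genes, 1240 (24.1%) were higher in both strains, 1264 (24.6%) lower in both, 1242 (24.2%) higher in SHR and lower in BN, and 1392 (27.1%) the reverse. Across genes, which are not independent replicates, the SHR and BN log2 ratios had a Pearson r of -0.032 and a Spearman rho of -0.043 over 5139 genes. A shift common to both strains therefore does not stand out in the table as a whole, and the genes below are called by their rule rather than a shared response. At the edge of the rule stood Snrpb2, just inside at 1.4e-05 (SHR) and 0.47 (BN) on the log2 scale, and Mgat4a, just outside with 0.15 and -2e-05.

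**Figure D1:**
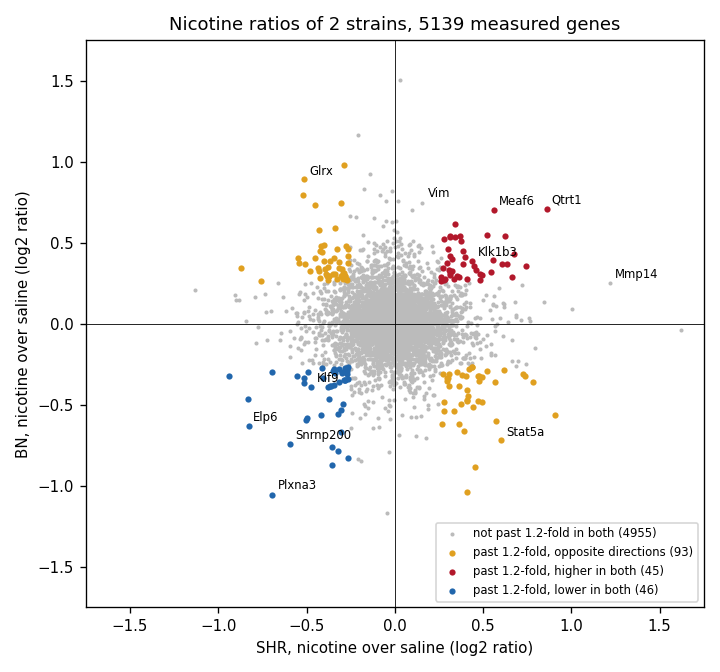
Log2 ratio of nicotine over saline in SHR (x axis) and BN (y axis) for 5139 measured genes, 1 point per gene. The 45 red and 46 blue genes, past 1.2-fold in the same direction, are about as many as the 93 orange genes past it in opposite directions.

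The same held for genes with larger ratios. At 1.2-fold in both strains, a log2 ratio of 0.26, 45 genes were higher in both (0.876% of the 5139 measured), 46 were lower in both (0.895%), and 93 were apart in opposite directions (1.81%). At 1.3-fold, 17 genes shared a direction and 24 did not. At 1.4-fold the counts were 9 and 5, and at 1.5-fold 4 and 1. Only in these last steps did the shared genes outnumber the opposite ones, on counts too small to compare.

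**Figure D2:**
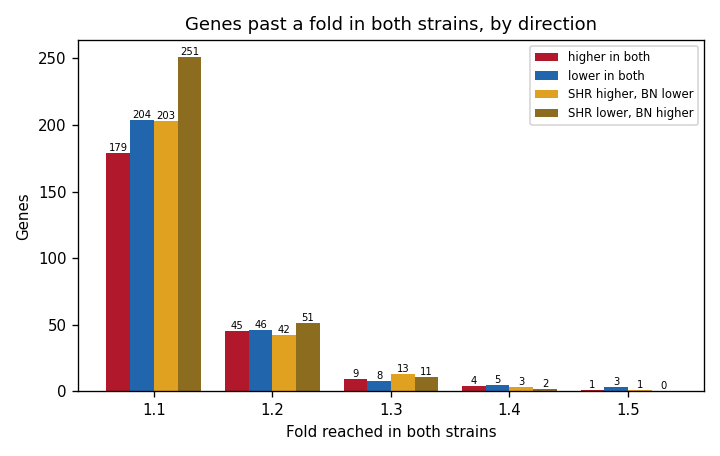
Number of genes (y axis) reaching each fold (x axis) in both strains, by direction in SHR and BN. Bars of the same and of opposite direction are of like height at 1.2-fold, with 45, 46, 42 and 51 genes, and few genes are left at 1.5-fold.

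The nicotine term of a limma model that also held strain gave 0 of 5363 genes (0%) below an adjusted p of 0.05. Without adjustment 285 (5.31%) were below 0.05, where 268 would be by chance. The smallest adjusted p was 0.0588. The count depended on how low signals were treated: it was 6 with the floor at the 20th percentile, 27 at the 60th and 4 with a pseudocount. Of the 285 genes, 274 had the same sign in both strains, which the mean over strains largely fixes. The p-values and SEs rest on 1 residual degree of freedom, which is the difference between the nicotine ratios of the strains. To it limma adds 13.35 prior degrees of freedom, a spread taken from all tested genes by their signal. Neither measures the spread between animals or between repeat pools of a group. An exact two-sided permutation of the treatment labels within strains cannot give a p below 0.5. No gene is therefore said to have changed below, and values are given as measured, with 1.2-fold in both strains as the size that 91 genes reached.

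The gene lowest under nicotine by the smaller of its ratios was Plxna3, a receptor for semaphorins. It read 81.1 under nicotine and 131.2 under saline in SHR, and 63.7 and 132.3 in BN, a log2 mean of -0.87 (SE 0.17, limma adjusted p = 0.0978). Snrnp200, the helicase that unwinds the U4/U6 pair in the spliceosome, read 163.7 and 246.7 in SHR, and 101.4 and 169.3 in BN, with log2 ratios of -0.59 and -0.74 (limma adjusted p = 0.0966). Both nicotine pools lay below both saline pools for each of these genes. Jarid2, a partner of the Polycomb complex that methylates histone H3, read 140.6 and 198.5 in SHR, and 98.3 and 147.1 in BN. Elp6, a subunit of Elongator, which modifies wobble uridines of transfer RNA, read 69.1 and 122.6 in SHR, and 81.4 and 126.2 in BN. Wdr33, which is not among the lowest 12, belongs to the complex that recognises the polyadenylation signal. It read 105.7 and 202.2 in SHR, and 129.1 and 161.2 in BN, so that its log2 ratio of -0.94 in SHR was further from 0 than the -0.32 in BN.

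The transcription factor Klf9, which glucocorticoid and thyroid hormone induce and which binds GC-rich boxes, had signals furthest above the floor among the lowest 12 genes. It read 576.6 under nicotine and 800.5 under saline in SHR, and 678.5 and 890.6 in BN. Both nicotine pools lay below both saline pools, with log2 ratios of -0.47 and -0.39 (SE of the mean 0.07, limma adjusted p = 0.0588). Averaged over all probe sets of the gene, the log2 mean was -0.27 in place of -0.43 (limma adjusted p = 0.979). No other probe set of Klf9 was measured in both strains, so this average takes in probe sets under the signal limit in SHR, BN or both. Slc9a3, known as NHE3, exchanges sodium for protons at the proximal tubule brush border and takes back filtered sodium. It read 402.9 and 523.4 in SHR, and 302.2 and 396.5 in BN. Its log2 ratios were nearly equal, -0.38 and -0.39 (limma adjusted p = 0.249). The SHR nicotine pool read above the BN saline pool, and each SHR pool above the BN pool of the same treatment. Micu2, a gatekeeper of mitochondrial calcium uptake, read 206.5 and 295.2 in SHR, and 192.7 and 248.4 in BN. Its log2 mean was -0.44, and -0.22 when averaged over all its probe sets, of which no other was measured in both strains.

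The remaining genes of the lowest 12 were dim. Slain2, which promotes microtubule growth, had log2 ratios of -0.51 and -0.59 in SHR and BN, and Pacsin3, a membrane-bending protein of endocytosis, -0.83 and -0.47. Kiaa1755 stood at -0.42 and -0.56, and Yars1, the tyrosyl transfer RNA synthetase, at -0.37 and -0.47. Ppp1r1b, a protein phosphatase inhibitor regulated by cyclic AMP, stood at -0.36 and -0.39. Their signals lay between 73.8 and 183.2, above the floor in all pools.

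Among the genes highest under nicotine in both strains, Qtrt1 came first. It encodes the catalytic subunit of the enzyme that puts queuine into transfer RNA, and it read 109.9 under nicotine and 60.6 under saline in SHR, and 91.8 and 56.3 in BN (log2 mean 0.78, SE 0.18, limma adjusted p = 0.249). Its saline signals lay close to the floor, and the log2 mean was 0.50 with a pseudocount and 0.09 when the floor was the 60th percentile. Meaf6, a subunit of histone acetyltransferase complexes, read 141.6 and 96.0 in SHR, and 153.1 and 94.2 in BN. Rbmx, an RNA-binding protein of splicing, read 115.2 and 74.8 in SHR, and 146.8 and 101.0 in BN. For these 3 genes both nicotine pools lay above both saline pools. Rmi1, part of the complex that dissolves DNA crossovers, read 168.7 and 105.7 in SHR, and 206.4 and 153.1 in BN. Stxbp2, a partner of syntaxins in membrane fusion, read 193.5 and 134.9 in SHR, and 161.1 and 110.1 in BN.

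For Klk1b3 and Gstm1 the strain difference was larger than the nicotine ratio. Klk1b3, a tissue kallikrein, read 795.9 and 588.6 in SHR, and 1411.2 and 1080.4 in BN, with log2 ratios of 0.44 and 0.39 (SE of the mean 0.07, limma adjusted p = 0.0588). Kallikreins release kinins, which widen vessels and promote salt excretion, and the family's genes are near-identical, so the probe set may read several of them. Gstm1, a glutathione transferase from another family of close copies, read 137.3 and 90.0 in SHR, and 400.8 and 310.1 in BN. Both BN pools lay above both SHR pools for these 2 genes. Pnrc2, a nuclear receptor coactivator that also acts in messenger RNA decay, was named for its p and not for its size. It read 374.9 and 272.1 in SHR, and 362.6 and 288.5 in BN (limma adjusted p = 0.249).

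The other genes of the highest 12 were Tmtc1, a mannosyltransferase of the endoplasmic reticulum, at 0.56 for SHR and 0.40 for BN on the log2 scale, and Haus4, a spindle protein, with 0.39 and 0.45. Pdpn, a membrane glycoprotein of podocytes and lymphatic vessels, stood at 0.37 and 0.54. Hyal2, which cleaves hyaluronan, stood at 0.37 and 0.51, and the kinase Stk25 at 0.40 and 0.41. In 10 of the highest 12 and 11 of the lowest 12 genes the nicotine and saline pools did not overlap across strains, against 20.8% of the 5139 measured genes, 10.2% with nicotine above and 10.5% with nicotine below. The genes were chosen by size, which fixes most of that difference. The exceptions were Gstm1, Klk1b3 and Slc9a3.

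**Figure D3:**
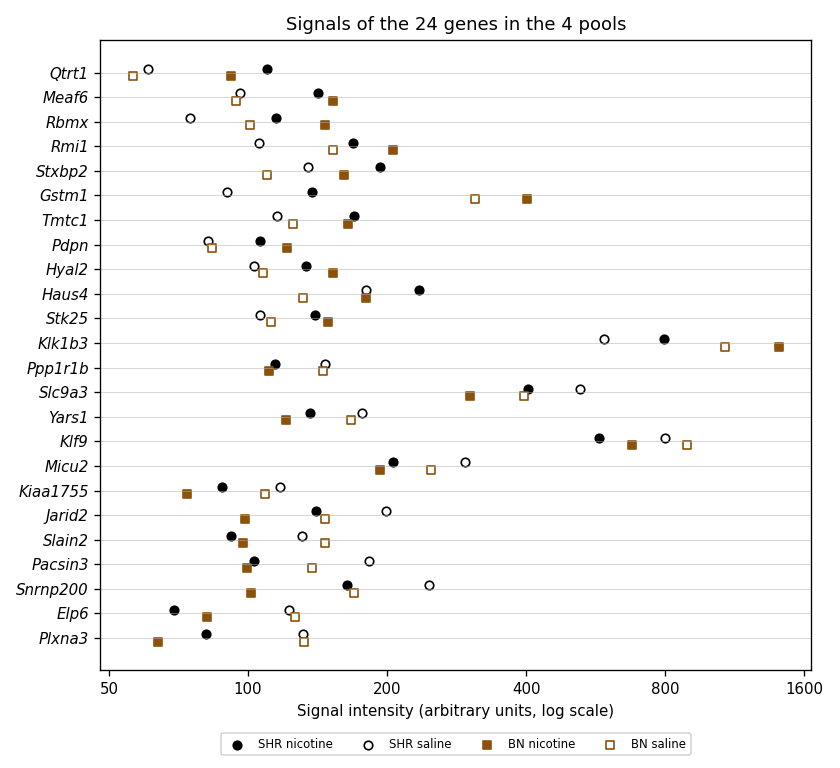
Signal intensity (x axis, arbitrary units, log scale) of the 12 highest and 12 lowest genes in each of the 4 pools, filled for nicotine and open for saline. Filled points lie right of open points of the same strain in the upper 12 rows and left of them in the lower 12, and most genes read below 200.

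Promoters of members past 1.2-fold were searched for motifs on both strands, in RefSeq windows of 300 bases around the transcription start (GRCr8), which 4377 of the 5139 measured genes had by symbol. CACGTG, the E-box bound by the clock factors, lay in 6 of 41 promoters of higher genes (14.6%), in 3 of 39 of lower genes (7.69%), in 10.3% of all measured genes and in 6.65% of all 27457 promoters. GGGCGG, the GC box bound by Sp and Klf factors, lay in 27 of 41 (65.9%), 20 of 39 (51.3%), 66.1% and 34.9%. AGAACA, a hexamer of the glucocorticoid receptor's element, lay in 14.6%, 17.9%, 11.6% and 20.1%. TGACNNNGC, the antioxidant element bound by Nrf2, lay in 7.32%, 2.56%, 15.9% and 12.2%. With 41 and 39 promoters these shares rest on few genes, and no test was made. Windows of 4 genes are shown because they carry or lack these motifs beside the values above: Slc9a3 and Klf9 from the lower side and Qtrt1 and Stxbp2 from the higher. They are written 5′ to 3′ along the gene's strand, with capitals at matches to any of the 4 motifs. They lie at chr1:30995953-30996252 (minus strand) for Slc9a3, chr1:230126396-230126695 (plus strand) for Klf9, chr8:28242457-28242756 (plus strand) for Qtrt1 and chr12:6487076-6487375 (plus strand) for Stxbp2.
Slc9a3: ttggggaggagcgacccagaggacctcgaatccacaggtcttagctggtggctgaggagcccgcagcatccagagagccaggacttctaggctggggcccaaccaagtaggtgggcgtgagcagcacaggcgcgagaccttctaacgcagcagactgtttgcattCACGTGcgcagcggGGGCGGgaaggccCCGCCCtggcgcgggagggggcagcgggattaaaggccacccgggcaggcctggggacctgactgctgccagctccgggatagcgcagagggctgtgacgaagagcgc
Klf9: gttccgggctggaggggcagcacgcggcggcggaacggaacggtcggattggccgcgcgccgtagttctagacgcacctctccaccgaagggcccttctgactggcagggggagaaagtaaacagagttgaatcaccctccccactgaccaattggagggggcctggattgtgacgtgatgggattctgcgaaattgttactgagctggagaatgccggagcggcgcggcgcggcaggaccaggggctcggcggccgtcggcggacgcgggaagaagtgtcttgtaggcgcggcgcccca
Qtrt1: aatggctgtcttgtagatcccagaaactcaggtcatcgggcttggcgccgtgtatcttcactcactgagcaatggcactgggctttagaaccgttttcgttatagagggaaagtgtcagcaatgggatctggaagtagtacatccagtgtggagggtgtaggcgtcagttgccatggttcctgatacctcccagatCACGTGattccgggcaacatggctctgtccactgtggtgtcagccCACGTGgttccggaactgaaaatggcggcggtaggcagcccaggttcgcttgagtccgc
Stxbp2: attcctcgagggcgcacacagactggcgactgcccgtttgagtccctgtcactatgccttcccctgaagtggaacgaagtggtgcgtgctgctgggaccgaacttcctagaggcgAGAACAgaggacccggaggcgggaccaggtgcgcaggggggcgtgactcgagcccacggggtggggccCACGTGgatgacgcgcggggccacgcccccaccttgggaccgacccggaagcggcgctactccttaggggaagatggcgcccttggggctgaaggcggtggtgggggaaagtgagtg

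The Slc9a3 window holds 1 E-box and 2 GC boxes, and the Klf9 window holds 0 matches to the 4 motifs. The Qtrt1 window holds 2 E-boxes, and the Stxbp2 window 1 E-box and 1 AGAACA hexamer. The other E-boxes of the higher genes were in Atpaf2, Hdac5, Rmi1 and Snx2, and those of the lower genes in Cnot4 and Polr3a. A match describes letters in this window only.

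Genes past 1.2-fold were mostly dim. Of the 45 higher genes 36 had a mean signal under 200 and 2 had one of at least 400, and of the 46 lower genes 38 and 3. Their median mean signals were 124.3 and 128.4, against 219.8 for all measured genes and 125.0 for the 93 genes of opposite direction. In the dimmest 1285 measured genes, with mean signals up to 137.2, 55 genes passed 1.2-fold in a shared direction and 55 in opposite directions. In the brightest 1285, from 417.9 upward, 4 shared a direction and 4 did not. The SD of the log2 ratio fell with signal alongside these counts, from 0.256 in SHR and 0.252 in BN in the dimmest set to 0.133 and 0.106 in the brightest.

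The 4 bright members past 1.2-fold were Klf9, Klk1b3, Nfe2l2 and Atp6v1b2. Nfe2l2, which encodes Nrf2, the regulator of antioxidant genes, read 536.3 under nicotine and 444.4 under saline in SHR, and 624.1 and 491.5 in BN. Atp6v1b2, a subunit of the proton pump, read 1305.2 and 1583.5 in SHR, and 1207.9 and 1470.4 in BN, with a log2 ratio of -0.28 in each. Its other probe set did not share this, at -0.02 in SHR and 0.17 in BN. At least 1.5-fold apart between strains were 2 of 45 higher genes (4.44%) and 2 of 46 lower genes (4.35%), against 3.48% of all measured genes and 6.45% of the 93 opposite ones. The median absolute strain log2 difference was 0.157 and 0.147, against 0.139 and 0.18.

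A readout that the rule did not use is the other probe sets of a member. Their positions on the transcript were not checked. For 262 members with 290 such probe sets, the other probe set had the member's direction in both strains for 89 (30.7%), in 1 strain for 136 and in none for 65. For genes of opposite sign, the other probe set matched the brightest in both strains for 98 of 311 (31.5%). The shared sign was thus repeated by other probe sets no more often than an opposite sign was. The mean ratio over strains correlated between the probe sets of a gene with r = 0.076 across 601 pairs, which share arrays and are not independent. The correlation was 0.025 for the SHR ratio and 0.168 for the BN ratio. Among members past 1.2-fold only 3 had another measured probe set. That of Cp, the copper-binding ferroxidase ceruloplasmin, repeated its direction, with 0.35 and 0.29 beside 0.38 and 0.37 for the brightest. That of Folh1, a folate hydrolase, did not, at -0.30 and -0.01 beside 0.30 and 0.46, and Atp6v1b2 is given above. Cp and Folh1 were chosen after their values were seen.

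**Figure D4:**
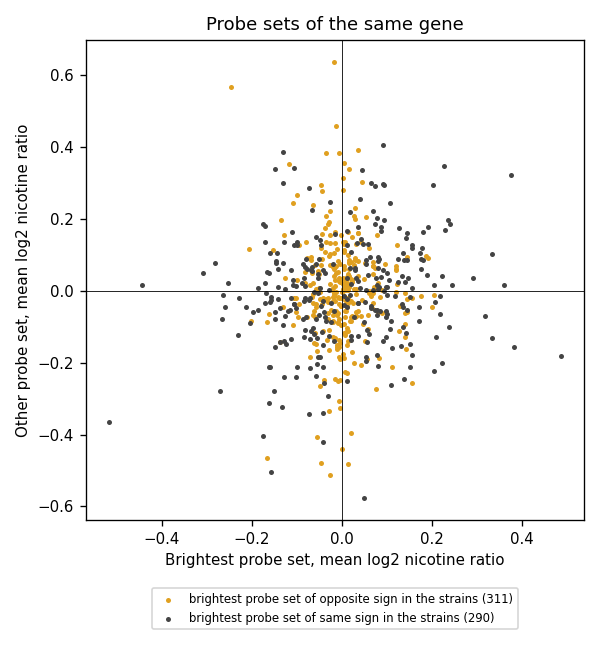
Mean log2 nicotine ratio over both strains for the brightest probe set of a gene (x axis) and another probe set of the same gene (y axis), 601 pairs. The cloud has no clear slope (r = 0.076), for members (dark) and for genes of opposite sign (orange) alike.

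Gene lists were read against the shares of all 5139 measured genes, of which 24.1% were higher and 24.6% lower in both strains. In the interferon and antigen presentation list, 7 of 12 measured genes (58.3%) were higher in both strains and 0 were lower, with a median log2 mean of 0.086 against 0.0 for all genes. Cd74, the chaperone of class II molecules, read 1706.1 under nicotine and 1387.5 under saline in SHR, and 1365.0 and 1298.3 in BN. RT1-Db1, a class II beta chain, read 251.1 and 219.9 in SHR, and 415.9 and 357.1 in BN, and Irf1, a transcription factor of the interferon response, 100.4 and 90.7, and 96.5 and 69.7. None of the 12 passed 1.2-fold in both strains. Of 8 measured macrophage and myeloid markers, 4 were higher in both strains, 0 were lower and 4 had opposite signs. The higher ones were Cd74 and RT1-Db1, which the interferon list also holds, the macrophage lysozyme Lyz2 and the receptor Csf1r. Among the opposite ones, the SHR and BN log2 ratios were -0.2 and 0.32 for Ctss and -0.1 and 0.38 for RT1-Ba. Those of Fcer1g were 0.21 and -0.03, and those of RT1-Da were -0.02 and 0.01. The 19 macrophage markers on the array summed to 5945.4 under nicotine and 5343.1 under saline in SHR, and 4956.6 and 4543.6 in BN. The nicotine sum was thus 1.11 and 1.09 times as high. Bright genes such as Cd74 weigh most in this sum, and only 12 of the 19 reached the signal limit in any pool. Of 7 measured endothelial markers 5 were higher in both strains and 1 lower, and the sum of the 9 on the array was 1.02 times its saline level in each strain. More cells of a type and more RNA per cell cannot be told apart in pooled tissue, and the part of the markers in the interferon list was not tested.

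Among the pathway lists with at least 8 measured genes, the proteasome had the largest share on the lower side. Of 34 measured subunits, 16 (47.1%) were lower in both strains and 6 (17.6%) higher, with a median log2 mean of -0.033. The differences were small, and 0 subunits passed 1.2-fold in both strains or had an unadjusted p under 0.05 with limma. Psmc1, an ATPase of the base, read 362.8 under nicotine and 386.8 under saline in SHR, and 398.2 and 456.7 in BN. The core subunit Psma4 read 237.2 and 258.0, and 233.8 and 246.4. Psmd1, a scaffold of the regulatory particle, went the other way with log2 ratios of 0.10 and 0.12, and both subunits of the interferon-induced activator were on the higher side, Psme1 at 0.12 and 0.07 and Psme2 at 0.17 and 0.01.

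Extracellular matrix genes leaned to the higher side: 11 of 25 (44.0%) were higher in both strains and 4 (16.0%) lower, with a median log2 mean of 0.025. Fn1, the matrix protein fibronectin, read 337.3 under nicotine and 282.8 under saline in SHR, and 341.2 and 291.7 in BN, with both nicotine pools above both saline pools. Col1a1, a chain of collagen I, had log2 ratios of 0.23 and 0.18, whereas Col1a2, the other chain of the same fibre, had -0.24 and -0.05. Mmp14, a membrane-bound matrix protease, was uneven between strains, with 105.1 and 45.2 for SHR and 98.6 and 82.9 for BN. The SHR saline reading of Mmp14 lay close to the floor of 44.5. Vim, the intermediate filament of mesenchymal cells, was uneven in the other sense, with 265.6 and 238.5 for SHR and 381.8 and 227.4 for BN. None of the 25 passed 1.2-fold in both strains. The summed signal of 13 fibroblast and smooth muscle markers was 0.959 times its saline level in SHR and 1.06 times in BN.

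Of 13 measured genes of the nephron development list, 4 (30.8%) were higher in both strains, 0 were lower and 9 were split. The 4 were Igf1r, Igf1, Bmp4 and the transcription factor Emx2, at 0.18 and 0.06. Igf1r, the receptor of insulin-like growth factor, read 225.0 and 184.6 in SHR, and 231.3 and 194.3 in BN. Its ligand Igf1 read 179.8 and 160.7, and 118.1 and 99.3, but another probe set of Igf1 had log2 ratios of -0.55 and 0.10. Bmp4, a bone morphogenetic protein, stood at 0.11 in each strain.

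Metabolic lists held small differences. Fatty acid oxidation and peroxisome genes were higher in both strains in 12 of 36 cases (33.3%) and lower in 4 (11.1%), led by the peroxisomal enzyme Ehhadh, with 798.8 and 643.3 for SHR and 1054.8 and 950.0 for BN. Of 13 drug oxidation genes 5 were higher and 3 lower, and the cytochromes Cyp2c11 and Cyp2e1 had log2 ratios of 0.38 and 0.37 in SHR and of only 0.08 and 0.07 in BN. Of 32 glutathione and antioxidant genes 8 were higher and 8 lower (25.0% each). In that list Nfe2l2 and Gstm1 passed 1.2-fold on the higher side. The glutathione synthesis genes Gclc and Gclm were among the lower ones, at -0.09 and -0.11 for SHR and -0.06 and -0.03 for BN. Also among the higher ones were Gstt2, at 0.14 and 0.11 for SHR and BN, and Sod2, at 0.19 and 0.12. The part of Nrf2 in these differences was not tested. Respiratory chain genes were higher in 14 of 68 and lower in 16, among the lower ones Ndufa3 of complex I with 1278.9 and 1622.8 for SHR and 1218.9 and 1333.7 for BN. Cholesterol synthesis genes were higher in 5 of 14 and lower in 2, with Acaca, the first enzyme of fatty acid synthesis, at -0.52 and -0.24.

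Transport and hormone lists showed no lean. Of 25 sodium and water transport genes, 8 were higher (32.0%) and 7 lower (28.0%) in both strains, with a median log2 mean of 0.006, and Slc9a3 alone passed 1.2-fold. Aqp2, the vasopressin-regulated water channel of the collecting duct, read 598.3 under nicotine and 864.1 under saline in SHR, and 903.9 and 1011.8 in BN. Of the 9 principal cell markers, which include Aqp2, 3 were higher in both strains, 2 lower and 4 split. Aqp3 stood at 0.03 and 0.05, the sodium channel subunit Scnn1a at 0.06 and 0.44, and Fxyd4 at -0.26 and -0.01. The summed signal of the 9 was 0.910 times its saline level in SHR and 0.993 times in BN. Of 6 renin-angiotensin genes 2 were higher and 1 lower. The receptor Agtr1a had log2 ratios of 0.15 and 0.12, but -0.07 and -0.13 with its other probe set, and Agt had opposite signs in the strains, -0.33 and 0.46. Of 3 measured kallikrein-kinin genes, Klk1b3 was higher and the kallikrein inhibitor Serpina4 lower in both strains, and Klk1 was split, at 0.30 and -0.07. Of 11 prostaglandin genes 3 were higher and 1 lower, the former including the prostaglandin E synthase Ptges, at 0.16 and 0.29.

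In the glucocorticoid list, Klf9 passed 1.2-fold in a shared direction and Pdk4, a kinase that inhibits pyruvate dehydrogenase, in opposite directions (-0.39 and 0.34). Of 19 measured, 3 were higher in both strains (15.8%), 5 lower (26.3%) and 11 split. Fkbp5, Tsc22d3 and Klf15 were among the split genes. Their SHR log2 ratios were 0.66, 0.25 and 0.19, and their BN log2 ratios -0.23, -0.13 and -0.26. The 5 lower genes were Klf9, Ddit4, Errfi1 (-0.27 and -0.06), Sgk1 (-0.02 and -0.18) and Cebpb (-0.13 and -0.05). Ddit4, an inhibitor of mTOR signalling, stood at -0.22 and -0.18, and Angptl4, a lipase inhibitor, at 0.11 and 0.30. Of 8 clock genes 3 were lower in both strains and 1 higher. Nr1d2, a clock repressor, read 147.3 and 168.4 in SHR, and 154.7 and 277.6 in BN, and its other probe set gave -0.05 and -0.68. Its partner Nr1d1 was split, at 0.41 and -1.04. Of 12 immediate early genes 2 were lower and 2 higher, with Egr1 past 1.2-fold at -0.27 and -0.29.

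Of 47 splicing and helicase genes 8 were higher (17.0%) and 15 lower (31.9%), with Rbmx and Snrnp70 on one side and Snrnp200 and Wdr33 on the other. Of 48 chromatin regulators 9 were higher (18.8%) and 13 lower (27.1%). Meaf6 was followed on the higher side by the deacetylase Hdac5, at 0.31 and 0.54, and by the demethylase Kdm6b, at 0.34 and 0.24. Of 17 transfer RNA modification genes 6 were higher and 4 lower, with Qtrt1 highest and Elp6 lowest. Of 18 cell cycle and repair genes 2 were higher and 4 lower, Ercc3, a helicase of nucleotide excision repair, at -0.35 and -0.29. Vesicle trafficking genes were higher in 13 of 50 and lower in 16, with Stxbp2 and the retromer subunit Vps35 (0.37 and 0.19) among the former and Rab5c (-0.24 and -0.33) among the latter. Ribosomal protein genes were higher in 9 of 39 and lower in 7, and endoplasmic reticulum chaperones and stress genes were higher in 6 of 32 and lower in 4. In those lists Rpl27 stood at 0.14 and 0.18, and the co-chaperone Bag3 at 0.24 and 0.18.

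**Figure D5:**
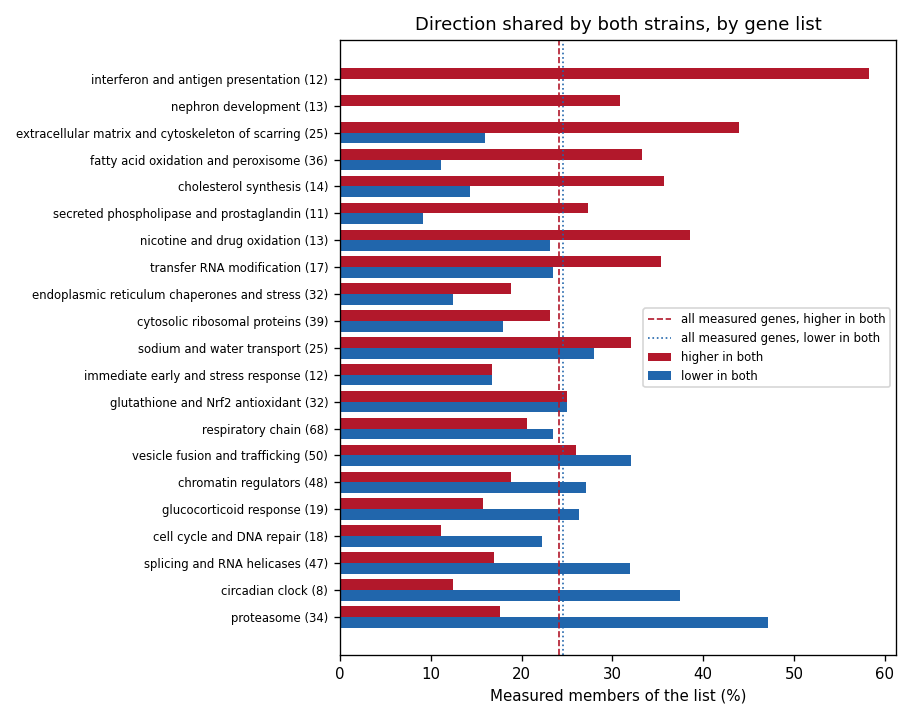
Share of the measured members of each gene list (x axis, %) that were higher (red) or lower (blue) under nicotine in both strains, with the number measured in brackets, for the lists with at least 8 measured. Dashed and dotted lines give the shares over all measured genes, 24.1% and 24.6%, and the interferon list (58.3% higher) and the proteasome list (47.1% lower) reach furthest past them.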

How the data were processed

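The authors deposited linear intensity values, 1 per probe set and array, computed with MAS5 per the submitters' processing notes, whose version and settings the sources used here do not give. A floor of 44.5 (40th percentile of the signals) was applied before log2 was taken. The 57 control probe sets were left out. Among the remaining 15866, a single gene symbol was listed for 12783, several for 312 and none for 2771 (unnamed here). Symbols were updated through gene identifiers to RefSeq, and the brightest probe set stood for a gene. Folds are ratios of floored signals within a strain; nicotine was tested with limma 3.58.1 in R 4.3.3 (strain and treatment, eBayes with intensity trend, Benjamini-Hochberg at 0.05). The fit was tested on simulated data.

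The members, gene lists and rules were chosen with earlier results of these data known. Named genes are the 12 highest and 12 lowest by the smaller of both log2 ratios among same-sign genes measured in both strains, the 5 in each direction by p, up to 4 members per list, and 2 in each opposite direction. Any other gene named, including list members and those past 1.2-fold given to complete a count, was chosen after its values were seen. Alternatives were the floor, a pseudocount, normalisation, probe set averaging, filter, trend, covariate and leaving out arrays.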

Additional observations from a re-analysis of the deposited data

Results flagged for a closer look

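For 4 genes given here the nicotine ratio pointed in opposite directions in the strains. They are the first 2 measured genes in each opposite direction when ranked by the smaller ratio. They are not those furthest apart between strains, since Klf10, for one, stood at 1.62 in SHR and -0.04 in BN. The difference between strains was not tested, since each ratio comes from 1 pair of pools. All 4 genes read below 200 in every pool, and ratios were more widely spread among dim genes than among bright ones. Stat5a, a transcription factor of growth hormone signalling, read 149.9 under nicotine and 99.0 under saline in SHR, and 100.4 and 164.8 in BN, so its SHR log2 ratio exceeded its BN ratio by 1.31. The histone deacetylase gene Hdac3 read 156.9 and 105.6 in SHR, and 122.1 and 184.7 in BN, a difference of 1.17. The replication helicase subunit Mcm7 read 70.0 and 100.6 in SHR, and 108.4 and 62.4 in BN, a difference of -1.32. Mcm7 was too dim to enter the limma test. Glrx, the glutaredoxin that reduces protein disulfides, read 78.9 and 112.5 in SHR, and 182.6 and 98.3 in BN, a difference of -1.41, and its other probe set stood at 0.14 and 0.04.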

How the results depend on the processing

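The share of measured genes with the same sign stayed between 48.5% and 49.1% in the 8 alternatives tried on it. The count of genes past the limma threshold was 0 as reported, but 6 when the floor was the 20th percentile, 27 when it was the 60th and 4 when a pseudocount replaced it (smallest adjusted p 0.0225, 6.01e-07 and 0.00689); the cause was not tested. It was 0 in the other alternatives that kept all 4 arrays, with a smallest adjusted p from 0.0711 to 1.0. Fits with an array left out hold 1 array of a treatment and no strain term. Their counts cannot show whether the result holds and are not given. Of the calls, 6 of 6, 24 of 27 and 4 of 4 had the same sign in both strains, and Klf9 and Klk1b3 were the 2 called in all 3. Each of these 2 genes had a limma adjusted p of 0.994 after quantile normalisation and of 0.688 after cyclic loess. Uchl1 and Pla2g12a were called at the lowest floor and under the pseudocount, but were not measured in both strains. The 27 also held Slc9a3, Snrnp200, Aqp2, Vim and Nr1d2.

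The counts of genes past 1.2-fold that were higher, lower and opposite were 45, 46 and 93 as reported. They were 181, 178 and 358 at the 20th percentile floor, 9, 10 and 17 at the 60th, 15, 15 and 30 with the pseudocount, and 89, 97 and 204 with no filter on low genes. At 1.3-fold they were 9, 8 and 24, and with every probe set on its own the higher count was 68. Of 91 members past 1.2-fold, 91 kept a shared sign under quantile and under cyclic loess normalisation, and 79 of the 81 still measured with means over probe sets. For 25 leading genes, 250 of 250 recomputed shifts kept their direction, for which the members had been chosen. That count was largely fixed in advance and is no sign of robustness. Leaving out an array gives the ratio of the other strain, and a floor or pseudocount cannot reverse a sign. The size of the shifts was not always kept. At the 60th percentile floor the log2 mean went from 0.78 to 0.09 for Qtrt1 and from -0.87 to -0.45 for Plxna3. It went from -0.73 to -0.36 for Elp6, from -0.49 to -0.23 for Kiaa1755 and from 0.46 to 0.23 for Pdpn. Means over probe sets took it from -0.43 to -0.27 for Klf9 and from -0.44 to -0.22 for Micu2. For Plxna3 they took it from -0.87 to -0.61. The other probe sets of Klf9, Micu2 and Plxna3 were not measured in both strains. Ratios were most widely spread among the dimmest 1285 genes, which hold 55 of the 91. No paired analysis was possible beyond the comparison within strains that the strain term already makes, because each group is a single pool on a single array.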

Other observations

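Probe sets without a single gene symbol were not named. Of 867 measured in both strains, 435 (50.2%) had the same sign in both strains. Past 1.2-fold, 11 were higher in both, 7 lower in both, 9 higher in SHR and lower in BN, and 12 the reverse. The summed signal of 3 erythrocyte markers under nicotine was 0.766 times its saline level in SHR and 1.47 times in BN.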
